A study of Mus musculus with 12 samples.

Results

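Lef1, 3 T-cell factor genes (Tcf7, Tcf7l1, Tcf7l2), beta-catenin (Ctnnb1), its cofactor Bcl9 and the homeobox gene Prox1 were followed over 4 populations of cells sorted from mouse colon adenomas. Members were chosen by gene symbol, as every probe set to which the array's platform table gives 1 of these 7 symbols alone. That gave 15 of 45141 probe sets, for 6 of 17097 genes with a probe set of their own: 1 for Lef1, 2 for Tcf7l1, 4 for Tcf7l2, 3 for Ctnnb1, 2 for Bcl9 and 3 for Prox1. The table used here gave Tcf7 no probe set, so Tcf7 was not analysed here. The arrays were Affymetrix mouse arrays, 12 in all, with 1 array from each of 3 mice for each of 4 populations: double positive (Mex3a+ Lgr5+), Mex3a single positive (Mex3a+ Lgr5-), Lgr5 single positive (Mex3a- Lgr5+) and double negative (Mex3a- Lgr5-). The product of Mex3a binds RNA, and that of Lgr5 is a surface receptor of crypt base stem cells. Every mouse (MKL358, MKL347, MKL367) was labelled ki/+, and all populations, the double negative cells included, came from these same adenoma-bearing mice. The sources used here do not give the meaning of ki/+, how the adenomas arose, how the sort was done or the age of the mice. Per the series design, the mice were the biological replicates and the adenomas of a mouse were pooled. A pool held 500 cells for mouse MKL358 and 2000 for MKL347 and MKL367.

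In the Wnt pathway, beta-catenin that escapes its destruction complex enters the nucleus and binds LEF/TCF proteins, which sit on DNA at a short motif and otherwise hold target genes down with corepressors. Tcf7l2 is the LEF/TCF factor that the proliferating crypts of the mouse intestine depend on, Tcf7l1 acts mostly as a repressor, and Lef1, low in the healthy adult intestine, is found in intestinal tumours. Bcl9 ties beta-catenin to Pygopus proteins, and Prox1, a factor of lymphatic endothelium, is also switched on in intestinal adenomas.

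The 3 members with the largest differences between populations, Lef1, Prox1 and Tcf7l1, are shown by the promoter of their most upstream start in RefSeq (build GRCm38.p6; 250 bases before to 50 after the start, 5′ to 3′ on the gene's strand). Capitals mark CAAAG, the core of the motif that LEF/TCF proteins bind, or its complement CTTTG. The windows lie at chr3:131110047-131110346 on the plus strand for Lef1, chr6:72788996-72789295 on the minus strand for Tcf7l1 and chr1:190170778-190171077 on the minus strand for Prox1.
Lef1: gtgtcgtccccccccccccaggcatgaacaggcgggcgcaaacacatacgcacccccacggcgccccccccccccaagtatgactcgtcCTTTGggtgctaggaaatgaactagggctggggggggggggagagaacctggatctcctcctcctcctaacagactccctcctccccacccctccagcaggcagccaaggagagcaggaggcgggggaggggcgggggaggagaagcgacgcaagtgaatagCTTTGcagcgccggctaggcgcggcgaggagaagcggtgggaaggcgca
Tcf7l1: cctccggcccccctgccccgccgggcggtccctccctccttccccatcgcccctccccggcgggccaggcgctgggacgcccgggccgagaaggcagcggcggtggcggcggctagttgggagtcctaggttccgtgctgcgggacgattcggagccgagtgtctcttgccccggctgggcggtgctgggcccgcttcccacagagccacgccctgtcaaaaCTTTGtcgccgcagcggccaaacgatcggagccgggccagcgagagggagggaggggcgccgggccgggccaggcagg
Prox1: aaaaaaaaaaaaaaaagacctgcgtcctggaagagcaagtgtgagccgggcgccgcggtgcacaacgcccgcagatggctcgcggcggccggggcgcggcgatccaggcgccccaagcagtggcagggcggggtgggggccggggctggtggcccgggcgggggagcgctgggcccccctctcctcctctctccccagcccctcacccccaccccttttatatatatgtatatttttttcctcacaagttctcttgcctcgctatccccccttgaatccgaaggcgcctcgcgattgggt
The Lef1 window held 2 copies of the core, both as CTTTG, the Tcf7l1 window 1, and the Prox1 window 0. Over all 14 windows of the 7 genes, 8 held the core on either strand. A sequence this short stood in 53.93% of the 32851 windows in the RefSeq table, so its presence sets no member apart. The longer form ATCAAAG, or CTTTGAT on the other strand, contains the core and stood in 3.729% of all windows and in 0 of the 14. A match describes the letters only.

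The arrays were alike in overall level, with medians between 4.86 and 4.92 on the log2 scale, and the 3 arrays within a population correlated at 0.973 to 0.989 over probe sets, which are not independent of each other. Arrays of mouse MKL358 and of the other mice differed in cell number as well as in animal, which cannot be told apart. Both sort markers followed the labels. Mex3a was higher in Mex3a+ than in Mex3a- cells by 0.69 on the log2 scale (SE 0.12, limma adjusted p = 0.00177), and Lgr5 was higher in Lgr5+ than in Lgr5- cells by 1.55 (SE 0.14, limma adjusted p = 0.00124). Lgr5 was also higher in Mex3a+ than in Mex3a- cells, by 0.82 (SE 0.14, limma adjusted p = 0.00148), so the Mex3a comparison carried an Lgr5 difference with it. In sorted pools, fewer cells of a type and less RNA per cell cannot be told apart.

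Most members differed with Mex3a status. Lef1 and Prox1 were 2.67-fold to 3.83-fold higher in Mex3a+ cells, Ctnnb1 and the brighter Bcl9 probe set were higher by smaller amounts, and Tcf7l1 and Tcf7l2 were lower. Of the 14 member probe sets that passed the filter on low values (above 4.40 log2, the 40th percentile of all values, on at least 3 arrays), 12 were called (limma, Benjamini-Hochberg adjusted p under 0.05 over 19883 probe sets), 8 higher and 4 lower. The same call was made for 25.3% of all probe sets tested, with 9.59% higher and 15.7% lower. With the mouse as a block, which gives each mouse its own level in the fit, 12 members were again called, 8 higher and 4 lower, against 39.9% of all probe sets, 15.9% higher and 24% lower. The 6 Mex3a+ and 6 Mex3a- arrays did not overlap for 8 of the 14 members, against 12.5% of all probe sets, 4.32% higher and 8.16% lower. These 8 were the Lef1 probe set, all 3 of Prox1, 1 of Ctnnb1 and 1 of Bcl9, which were higher, and both of Tcf7l1, which were lower. The fit that left out mouse MKL347 and had no mouse block called only 2 members, the brightest Prox1 probe set and the dimmer of Tcf7l1. With the block, leaving out any 1 mouse gave 11 to 13 calls. The shares of all probe sets called in these leave-out fits are not given here, so these counts are not set against all probe sets.

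**Figure D1:**
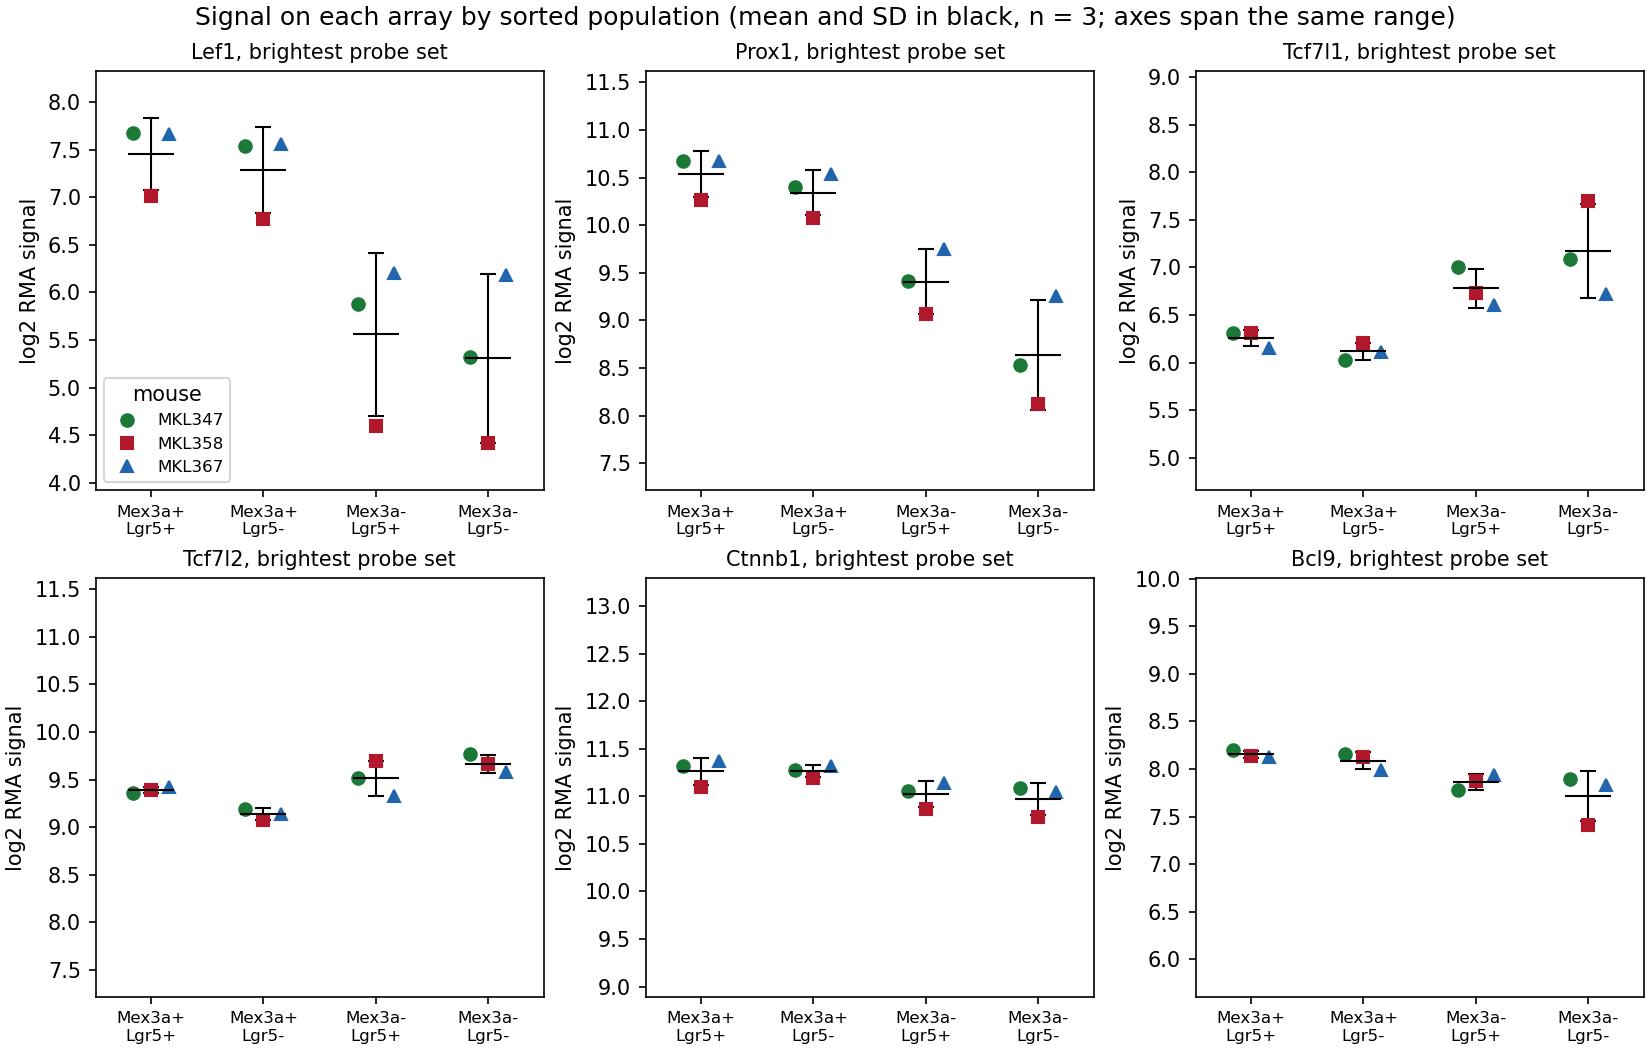
Log2 RMA signal (vertical axis, the same span in each panel) of the brightest probe set of each of the 6 measured genes in the 4 sorted populations (horizontal axis). Points are arrays, marked by mouse, and black bars give the mean and SD (n = 3). Lef1 and Prox1 stand higher in both Mex3a+ populations, with means of 7.45 and 7.29 for Lef1 against 5.56 and 5.31 in the Mex3a- populations, Tcf7l1 stands lower in them, and the other genes move little.

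Lef1, the factor that is low in the healthy adult intestine, stood at 7.02, 7.68 and 7.67 on the log2 scale in Mex3a+ Lgr5+ cells of mice MKL358, MKL347 and MKL367. In Mex3a+ Lgr5- cells of the same mice it stood at 6.77, 7.54 and 7.56. All 6 Mex3a+ arrays were above all 6 Mex3a- arrays. Lef1 stood at 4.59, 5.88 and 6.21 in Mex3a- Lgr5+ cells, and at 4.42, 5.32 and 6.19 in Mex3a- Lgr5- cells. In every population mouse MKL358 was the lowest, and in its Mex3a- cells Lef1 was close to the filter level of 4.40. The average Mex3a difference was 1.94 (SE 0.33, 95% interval 1.22 to 2.65), or 3.83-fold higher in Mex3a+ cells (limma adjusted p = 0.00144; 3.66e-07 with the mouse as a block). It was 2.39 in mouse MKL358, 2.01 in MKL347 and 1.42 in MKL367, so each mouse showed the same direction. Without mouse MKL347 and with no block, Lef1 was still higher by 1.90 but missed the threshold (limma adjusted p = 0.0621). With the block, its highest limma adjusted p without any 1 mouse was 5.12e-05.

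The order of the Lef1 means was double positive (7.45 ± 0.38), Mex3a single positive (7.29 ± 0.45), Lgr5 single positive (5.56 ± 0.85) and double negative (5.31 ± 0.89; SD, n = 3 each). The means of both Mex3a+ populations differed by 0.16 (SE 0.46, and 0.19 with the mouse as a block), with 0.10 to 0.25 in the single mice. The means of both Mex3a- populations differed by 0.25 (SE 0.46, and 0.19 with the block), with 0.02 to 0.56 in the single mice. Neither difference was called with or without the block. The step between them, Mex3a+ Lgr5- against Mex3a- Lgr5+, was 1.73 (SE 0.46, limma adjusted p = 0.0587, and 8.37e-05 with the mouse as a block). Lef1 was higher with Mex3a in Lgr5+ cells by 1.89 and in Lgr5- cells by 1.98 (limma adjusted p = 0.0333 and 0.015).

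Tcf7l1, the factor that mostly represses, ran the other way. Its brighter probe set stood at 6.31, 6.31 and 6.16 in Mex3a+ Lgr5+ cells of mice MKL358, MKL347 and MKL367, and at 6.21, 6.03 and 6.11 in Mex3a+ Lgr5- cells. The Mex3a- cells were all above these. Tcf7l1 stood at 6.73, 7.004 and 6.61 in Mex3a- Lgr5+ cells, and at 7.70, 7.09 and 6.72 in Mex3a- Lgr5- cells. The highest value, 7.70, was the double negative pool of mouse MKL358. Averaged over Lgr5 status, the Mex3a difference was -0.79 (SE 0.14, 95% interval -1.10 to -0.48), or 1.73-fold lower in Mex3a+ cells (limma adjusted p = 0.00201; 0.000128 with the mouse as a block). Without mouse MKL347 and with no block it was -0.74 and missed the threshold (limma adjusted p = 0.0716). With the block, the highest limma adjusted p without any 1 mouse was 0.00381. The dimmer Tcf7l1 probe set gave the same direction, with a difference of -1.06 (SE 0.17, limma adjusted p = 0.00115).

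On the dimmer Tcf7l1 probe set the Mex3a+ arrays lay between 4.69 and 4.97, within 1 log2 unit above the filter level, against 5.28 to 6.96 on the Mex3a- arrays. The order of means on the brighter Tcf7l1 probe set was, from the lowest, Mex3a single positive (6.12 ± 0.09), double positive (6.26 ± 0.09), Lgr5 single positive (6.78 ± 0.20) and double negative (7.17 ± 0.49; SD, n = 3 each). No step between neighbours was called without the block: the differences were 0.14 for Mex3a+ Lgr5+ against Mex3a+ Lgr5-, -0.52 for Mex3a+ Lgr5+ against Mex3a- Lgr5+, and -0.39 for Mex3a- Lgr5+ against Mex3a- Lgr5- (limma adjusted p = 0.9999, 0.15 and 0.879). The middle step passed with the mouse as a block (limma adjusted p = 0.0363). Tcf7l1 was 2.08-fold lower with Mex3a in Lgr5- cells (difference -1.05, limma adjusted p = 0.00583). The difference between its Mex3a effects in Lgr5+ and in Lgr5- cells was 0.53 (SE 0.28) and was not called (limma adjusted p = 0.9999, and 0.567 with the block). On the dimmer probe set it was 0.78 (SE 0.35), also not called (limma adjusted p = 0.9999, unadjusted 0.0449, and 0.502 with the block). There Mex3a- Lgr5+ arrays lay below all Mex3a- Lgr5- arrays, but the difference of -0.65 was not called (limma adjusted p = 0.717, and 0.141 with the block).

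Tcf7l2, the factor of normal crypts, varied over a narrow range. Its brightest probe set stood at 9.39, 9.35 and 9.42 in Mex3a+ Lgr5+ cells of mice MKL358, MKL347 and MKL367, and at 9.07, 9.20 and 9.14 in Mex3a+ Lgr5- cells. In Mex3a- Lgr5+ cells it stood at 9.70, 9.51 and 9.33, and in Mex3a- Lgr5- cells at 9.66, 9.77 and 9.58. The groups overlapped only in that the Mex3a- Lgr5+ array of mouse MKL367 lay below all 3 Mex3a+ Lgr5+ arrays. The average Mex3a difference was -0.33 (SE 0.067), or 1.26-fold lower in Mex3a+ cells (limma adjusted p = 0.0041; 0.098 without mouse MKL347 and with no block). With the block, the highest limma adjusted p without any 1 mouse was 0.0143. In Lgr5- cells the difference was -0.53 (limma adjusted p = 0.00442), and in Lgr5+ cells -0.13 (limma adjusted p = 0.501). The difference between these effects, 0.41 (SE 0.13), was not called (limma adjusted p = 0.9999, unadjusted 0.0109; 0.391 with the block).

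Among the other Tcf7l2 probe sets, 1 also fell, by 0.38 on average (SE 0.11, limma adjusted p = 0.0294), 1 was not called (difference -0.17, SE 0.087, limma adjusted p = 0.18; 0.0559 with the block), and 1 was below the filter, with values of 3.52 to 4.82. The second call was the least stable of the 12: leaving out mouse MKL358 gave -0.34 (limma adjusted p = 0.125), leaving out MKL347 gave -0.31 (0.245, and 0.0651 with the block), and 8 of 12 fits without 1 array also missed the threshold, at limma adjusted p up to 0.0731. The order of means on the brightest Tcf7l2 probe set was, from the lowest, Mex3a single positive (9.13 ± 0.06), double positive (9.39 ± 0.03), Lgr5 single positive (9.51 ± 0.18) and double negative (9.67 ± 0.09; SD, n = 3 each). The Mex3a+ Lgr5+ and Mex3a+ Lgr5- arrays did not overlap, but the difference of 0.25 (SE 0.095) was not called (limma adjusted p = 0.9999, and 0.431 with the block).

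Ctnnb1 encodes beta-catenin itself, the protein that LEF/TCF factors bind. Its brightest probe set stood at 11.10, 11.32 and 11.37 in Mex3a+ Lgr5+ cells of mice MKL358, MKL347 and MKL367, and at 11.19, 11.28 and 11.32 in Mex3a+ Lgr5- cells. In Mex3a- Lgr5+ cells it stood at 10.87, 11.05 and 11.14, and in Mex3a- Lgr5- cells at 10.78, 11.09 and 11.05. Within each mouse both Mex3a+ values were above both Mex3a- values, although the groups overlapped across mice. Averaged over Lgr5 status, the Mex3a difference on this Ctnnb1 probe set was 0.27 (SE 0.070), or 1.20-fold higher in Mex3a+ cells (limma adjusted p = 0.016; 4.13e-05 with the block). The other Ctnnb1 probe sets were higher by 0.35 (SE 0.064) and 0.25 (SE 0.047; limma adjusted p = 0.00217 and 0.00236). Without mouse MKL347 and with no block, all 3 Ctnnb1 probe sets missed the threshold (limma adjusted p = 0.127, 0.0914 and 0.0751), and without MKL367 the first and the third did (0.101 and 0.0502). With the block, their highest limma adjusted p without any 1 mouse was 0.00176, 0.00312 and 0.00564.

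Bcl9, the cofactor that joins beta-catenin to Pygopus, stood at 8.13, 8.20 and 8.13 on its brighter probe set in Mex3a+ Lgr5+ cells of mice MKL358, MKL347 and MKL367, and at 8.12, 8.15 and 7.98 in Mex3a+ Lgr5- cells. In Mex3a- Lgr5+ cells it stood at 7.87, 7.78 and 7.94, and in Mex3a- Lgr5- cells at 7.41, 7.89 and 7.83. Every Mex3a+ array was above every Mex3a- array, narrowly so between 7.98 and 7.94. The average Mex3a difference was 0.33 (SE 0.087), or 1.26-fold higher in Mex3a+ cells (limma adjusted p = 0.016), and it missed the threshold without mouse MKL347 (0.33, adjusted p = 0.133) or MKL367 (0.41, adjusted p = 0.0739) where the fit had no block. With the block, the highest limma adjusted p without any 1 mouse was 0.0322. The dimmer Bcl9 probe set, with values of 4.28 to 4.82 near the filter level, was not called (0.093, SE 0.088, limma adjusted p = 0.479). Averaging the Bcl9 probe sets gave 0.21, which missed the threshold (limma adjusted p = 0.0688).

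Prox1 was the member whose Mex3a difference had the smallest p. Its brightest probe set stood at 10.26, 10.67 and 10.68 in Mex3a+ Lgr5+ cells of mice MKL358, MKL347 and MKL367, and at 10.08, 10.40 and 10.54 in Mex3a+ Lgr5- cells. In Mex3a- Lgr5+ cells it stood at 9.06, 9.41 and 9.74, and in Mex3a- Lgr5- cells at 8.12, 8.53 and 9.25. The 6 Mex3a+ arrays were all above the 6 Mex3a- arrays, and within each mouse the 4 populations came in the same order. Averaged over Lgr5 status, the Mex3a difference was 1.42 (SE 0.18, 95% interval 1.02 to 1.82), or 2.67-fold higher in Mex3a+ cells (limma adjusted p = 0.000328; 9.42e-08 with the mouse as a block). It lay between 1.11 and 1.58 in the single mice. The other Prox1 probe sets were higher by 1.64 (SE 0.27) and 1.67 (SE 0.30; limma adjusted p = 0.00123 and 0.00203), and these missed the threshold without mouse MKL347 when the fit had no block (1.51 and 1.63, limma adjusted p = 0.069 and 0.0783). With the block, their highest limma adjusted p without any 1 mouse was 3.63e-05 and 0.000131.

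**Figure D2:**
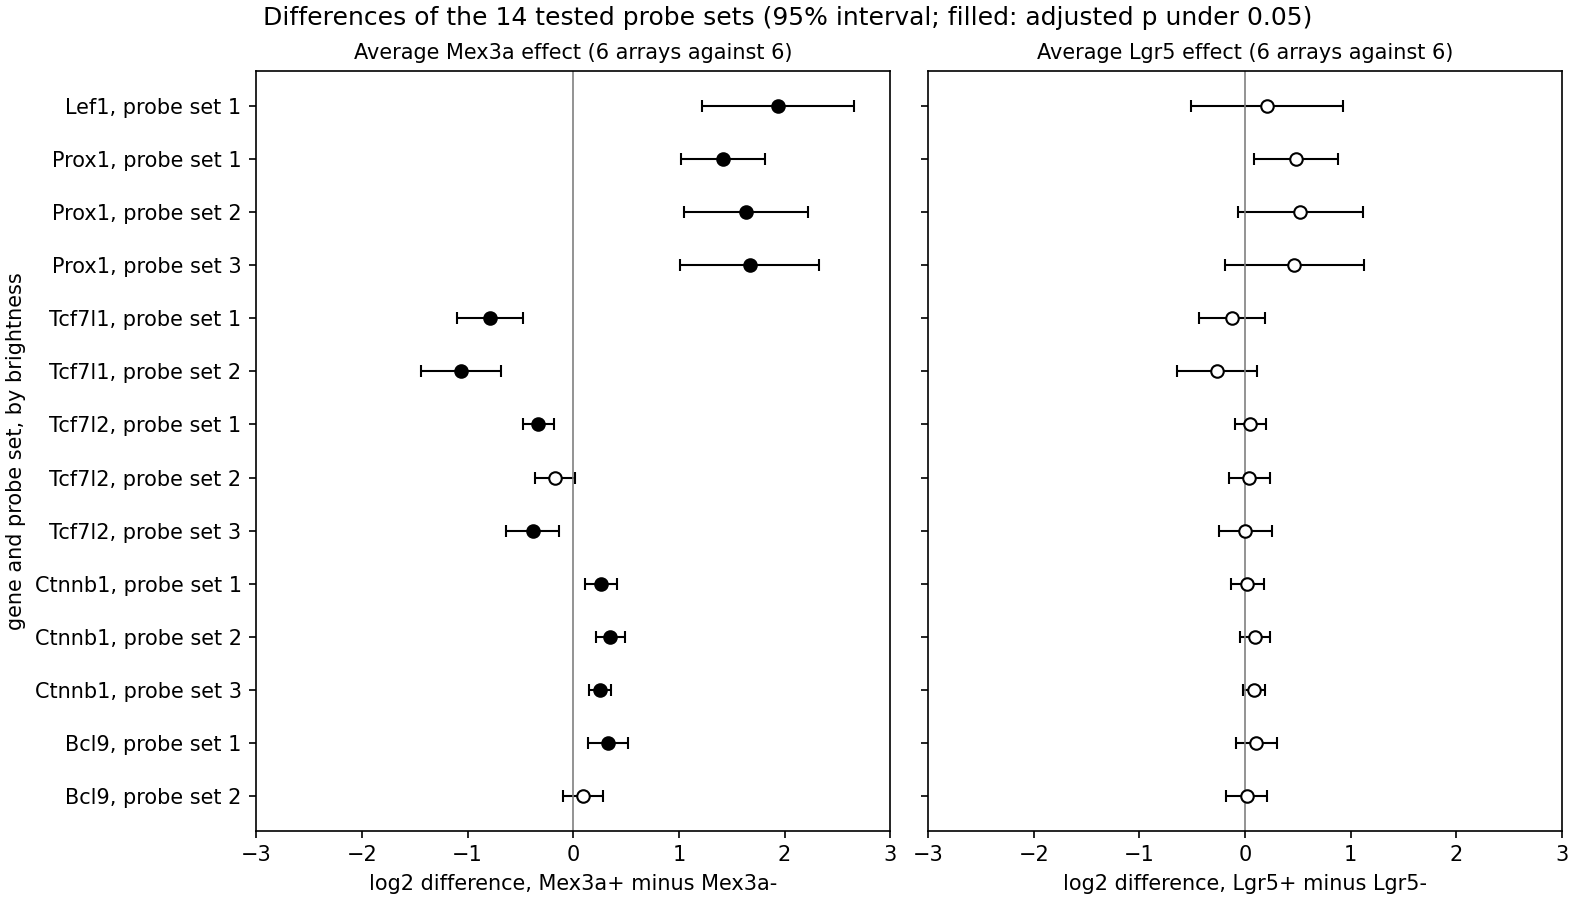
Log2 differences with 95% intervals (horizontal axis) for the 14 tested member probe sets (vertical axis, numbered by brightness within a gene), for Mex3a+ minus Mex3a- on the left and Lgr5+ minus Lgr5- on the right, 6 arrays against 6. Filled points passed a limma adjusted p of 0.05 without the mouse block. On the left 8 are filled to the right of 0 and 4 to the left. On the right 0 are filled, and the Prox1 probe sets lie farthest above 0. The intervals are also those of the fit without the mouse block.

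Fewer members were called for Lgr5 status. Of the 14 member probe sets, 0 were called for the average Lgr5 difference by limma without the block, with 1 at an unadjusted p under 0.05, against calls for 0.0352% of all probe sets. With the mouse as a block 2 were called, both of Prox1, against 1.62% of all probe sets. The brightest Prox1 probe set was higher in Lgr5+ than in Lgr5- cells by 0.48 (95% interval 0.09 to 0.88; limma adjusted p = 0.717, and 0.0122 with the block), and the second by 0.52 (0.902, and 0.0339 with the block). The third Prox1 probe set, at 0.47, was not called (limma adjusted p = 0.971, and 0.117 with the block). In the fits with the block that left out a mouse, both Prox1 calls held without MKL367 and neither held without MKL358 or without MKL347.

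On its brightest probe set the order of the Prox1 means was double positive (10.54 ± 0.24), Mex3a single positive (10.34 ± 0.24), Lgr5 single positive (9.41 ± 0.34) and double negative (8.63 ± 0.58; SD, n = 3 each). The Lgr5 difference in Mex3a- cells was 0.77 (0.49 to 0.94 in the single mice), called with the block and not without it (limma adjusted p = 0.0072 and 0.626). In Mex3a+ cells it was 0.20 (limma adjusted p = 0.9999, and 0.696 with the block). These Prox1 differences were not shown to be unequal: the interaction was -0.57 (SE 0.36, limma adjusted p = 0.9999, and 0.391 with the block). Prox1 in Mex3a+ Lgr5- against Mex3a- Lgr5+ cells differed by 0.94 (limma adjusted p = 0.0638, and 0.000175 with the block). For Lef1 the average Lgr5 difference was 0.21 (95% interval -0.51 to 0.92), for Tcf7l1 -0.12 (-0.43 to 0.18), for Tcf7l2 0.050 (-0.10 to 0.20), for Ctnnb1 0.022 (-0.13 to 0.18) and for Bcl9 0.11 (-0.08 to 0.30) on their brightest probe sets, none called with or without the block. With the block the intervals were -0.08 to 0.50 for Lef1, -0.37 to 0.12 for Tcf7l1 and -0.08 to 0.18 for Tcf7l2. They were -0.05 to 0.09 for Ctnnb1 and -0.06 to 0.28 for Bcl9.

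Split by Lgr5 status, 4 of the 14 member probe sets were called for Mex3a in Lgr5+ cells, all higher: Lef1, 1 of Ctnnb1 and 2 of Prox1 (limma; 6.9% of all probe sets, 2.92% higher and 3.98% lower). With the mouse as a block 9 were called, 7 higher and 2 lower, against 21.2% of all probe sets (8.86% higher and 12.3% lower), and the 2 lower were both of Tcf7l1. Without the block, 0 were called when the Mex3a+ Lgr5+ array of mouse MKL347 or MKL367, or the Mex3a- Lgr5+ array of MKL347, was left out, and 1 without the Mex3a- Lgr5+ array of MKL358. Shares of all probe sets in these leave-out fits are not given here. In Lgr5- cells 10 were called, 6 higher and 4 lower, against 15.3% of all probe sets, 5.01% higher and 10.3% lower (12 with the block, against 30.7%). The 4 lower were both of Tcf7l1 and 2 of Tcf7l2. The brightest Prox1 probe set was 2.19-fold higher with Mex3a in Lgr5+ cells (difference 1.13, limma adjusted p = 0.0261) and 3.26-fold higher in Lgr5- cells (1.71, limma adjusted p = 0.00229). For the interaction of Mex3a and Lgr5 status limma called 0 of the 14 members and 0% of all probe sets, with 2 members at an unadjusted p under 0.05, and 0 members with the block.

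Of the remaining comparisons, Mex3a+ Lgr5+ against Mex3a- Lgr5- cells gave 9 calls among the members, 7 higher and 2 lower (limma; 17.7% of all probe sets, 7.6% higher and 10.1% lower; 12 with the block, against 32.2%). Lef1 was 4.42-fold higher in the double positive cells (difference 2.15, SE 0.46, limma adjusted p = 0.00815) and Prox1 3.74-fold higher (1.90, SE 0.26, limma adjusted p = 0.000769). Mex3a+ Lgr5- against Mex3a- Lgr5+ cells gave 1 call, the brightest Tcf7l2 probe set, which was lower by 0.38 on the log2 scale (difference -0.38, SE 0.095, limma adjusted p = 0.0483; 4.16% of all probe sets, 1.19% higher and 2.97% lower). With the block 11 members were called there, 7 higher and 4 lower, against 20% of all probe sets, 6.31% higher and 13.7% lower. For Lgr5 in Mex3a+ cells 0 members were called (limma; 1 at an unadjusted p under 0.05; 0% of all probe sets, and 0 members against 0.0453% with the block). For Lgr5 in Mex3a- cells 0 were called (limma, with 2 at an unadjusted p under 0.05, against 0.0352% of all probe sets). With the block 1 was called, the brightest Prox1 probe set, against 1.5% of all probe sets. These comparisons share arrays with each other.

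**Figure D3:**
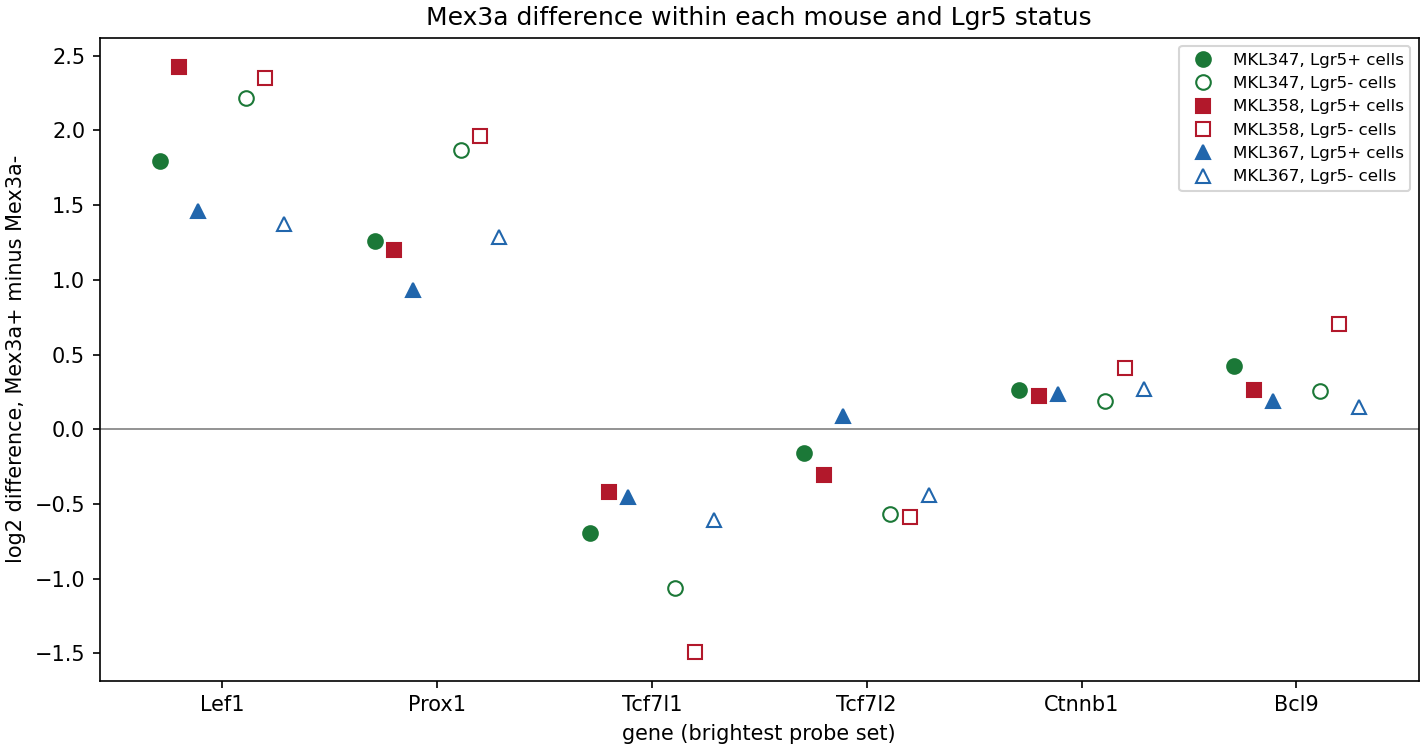
Log2 difference of Mex3a+ minus Mex3a- cells (vertical axis) on the brightest probe set of each gene (horizontal axis), for each mouse, with filled marks for Lgr5+ cells and open marks for Lgr5- cells. All 6 values lie above 0 for Lef1 (1.38 to 2.42), Prox1, Ctnnb1 and Bcl9 and below 0 for Tcf7l1. For Tcf7l2 1 value, 0.086 in Lgr5+ cells of mouse MKL367, lies above 0.

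Averaged over Lgr5 status, 13 of the 14 member probe sets had the same sign of the Mex3a difference in all 3 mice. The exception was the dimmer Bcl9 probe set, which ran from -0.16 to 0.27. The share of all probe sets with the same sign in all mice is not given here, and the 14 stand for only 6 genes. Mouse MKL367 had the smallest Mex3a difference for Lef1 (1.42), Prox1 (1.11) and Tcf7l1 (-0.53 on the brighter probe set). Its Mex3a- cells were the highest of the 3 mice for Lef1 and Prox1 and the lowest for the brighter Tcf7l1 probe set, in both Lgr5 states. Its Mex3a+ cells were close to those of MKL347 for Lef1 and Prox1.

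The genes whose pattern over the 12 arrays was most like each member's, after each mouse's mean was removed, are given as a description. They were sought among genes past the filter, with symbols of clones and gene models left out. The arrays share mice and the Mex3a difference. For Lef1 they were Erich3 (Pearson r = 0.996 over 12 arrays), Nkd1, an inhibitor of Wnt signalling (0.995), and Cubn (0.995). For Prox1 they were Kdm1a, a histone demethylase (0.992), Gtf2i (0.992) and Dnmt3a, a DNA methyltransferase (0.989), and for Tcf7l1 Cbr3 (0.984), Ptk6 (0.981) and Tomm22 (0.980). For Tcf7l2 they were Synj2bp (0.969), Fastk (0.958) and Hsd17b11 (0.958), for Ctnnb1 Herc4 (0.980), Fosl2 (0.979) and Cers6 (0.976), and for Bcl9 Hnrnph1 (0.978), Zfand6 (0.974) and G3bp2 (0.971). No member appeared among another member's 3 nearest genes.

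Other genes of the pathway were read by their brightest probe set. By that reading limma called 26.4% of all genes for the average Mex3a difference, 9.53% higher and 16.9% lower, and the median over all genes was -0.013. With the block the share is given over all probe sets only: 39.9%, with 15.9% higher and 24% lower. Of 25 listed intestinal target genes of LEF/TCF factors, 23 were tested: 15 were higher in Mex3a+ cells, 1 was lower and 7 were not called, with a median difference of 0.82 (16 higher and 4 lower with the block). Those of smallest p were Apcdd1, an inhibitor of Wnt signalling (2.42, SE 0.25, limma adjusted p = 8.87e-05), Axin2, the feedback scaffold of the destruction complex (0.67), Wnt10a (2.04) and Wnt6 (0.90), which encode ligands, Dkk2, a secreted modulator (1.33), and Notum, which inactivates Wnt ligands (1.45). The lower one was Cd44, a cell adhesion receptor (-0.56, SE 0.15, limma adjusted p = 0.0115), named after its value was seen. For the average Lgr5 difference 1 of the 23 was called, Lgr5 itself, against 0.0397% of all genes. With the block 4 were called, against 1.62% of all probe sets, the others being Axin2, Cdk6 and Rgmb. Lgr5 is a sort marker, so its call for Lgr5 status follows from the sort. It is also 1 of the 15 higher in Mex3a+ cells, and its difference there, 0.82, was the median of the list.

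Of 20 tested cofactors and corepressors that act on beta-catenin and LEF/TCF factors, 4 were higher in Mex3a+ cells, 2 lower and 14 not called, with a median difference of -0.010 (6 higher and 3 lower with the block). Higher were Bcl9l, the relative of Bcl9 (0.39, SE 0.075, limma adjusted p = 0.00305), Nlk, a kinase that phosphorylates LEF/TCF factors (0.89), the corepressor Tle3 (0.42) and Tbl1x (0.19). Lower were the corepressors Ctbp2 (-0.32) and Tle4 (-0.46). Of 12 tested genes of the destruction complex and its regulators, limma called 0, with a median of 0.078. With the block 4 were called higher (Btrc, Siah1a, Amer1 and Fbxw11, named after their values were seen), against 15.9% of all probe sets. Of 6 tested partners of beta-catenin at adherens junctions, 1 was lower, Cdh1, which encodes E-cadherin (-0.37, SE 0.11, limma adjusted p = 0.0255), and 5 were not called, with a median of -0.12. With the block Ctnnd1 was called lower too.

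**Figure D4:**
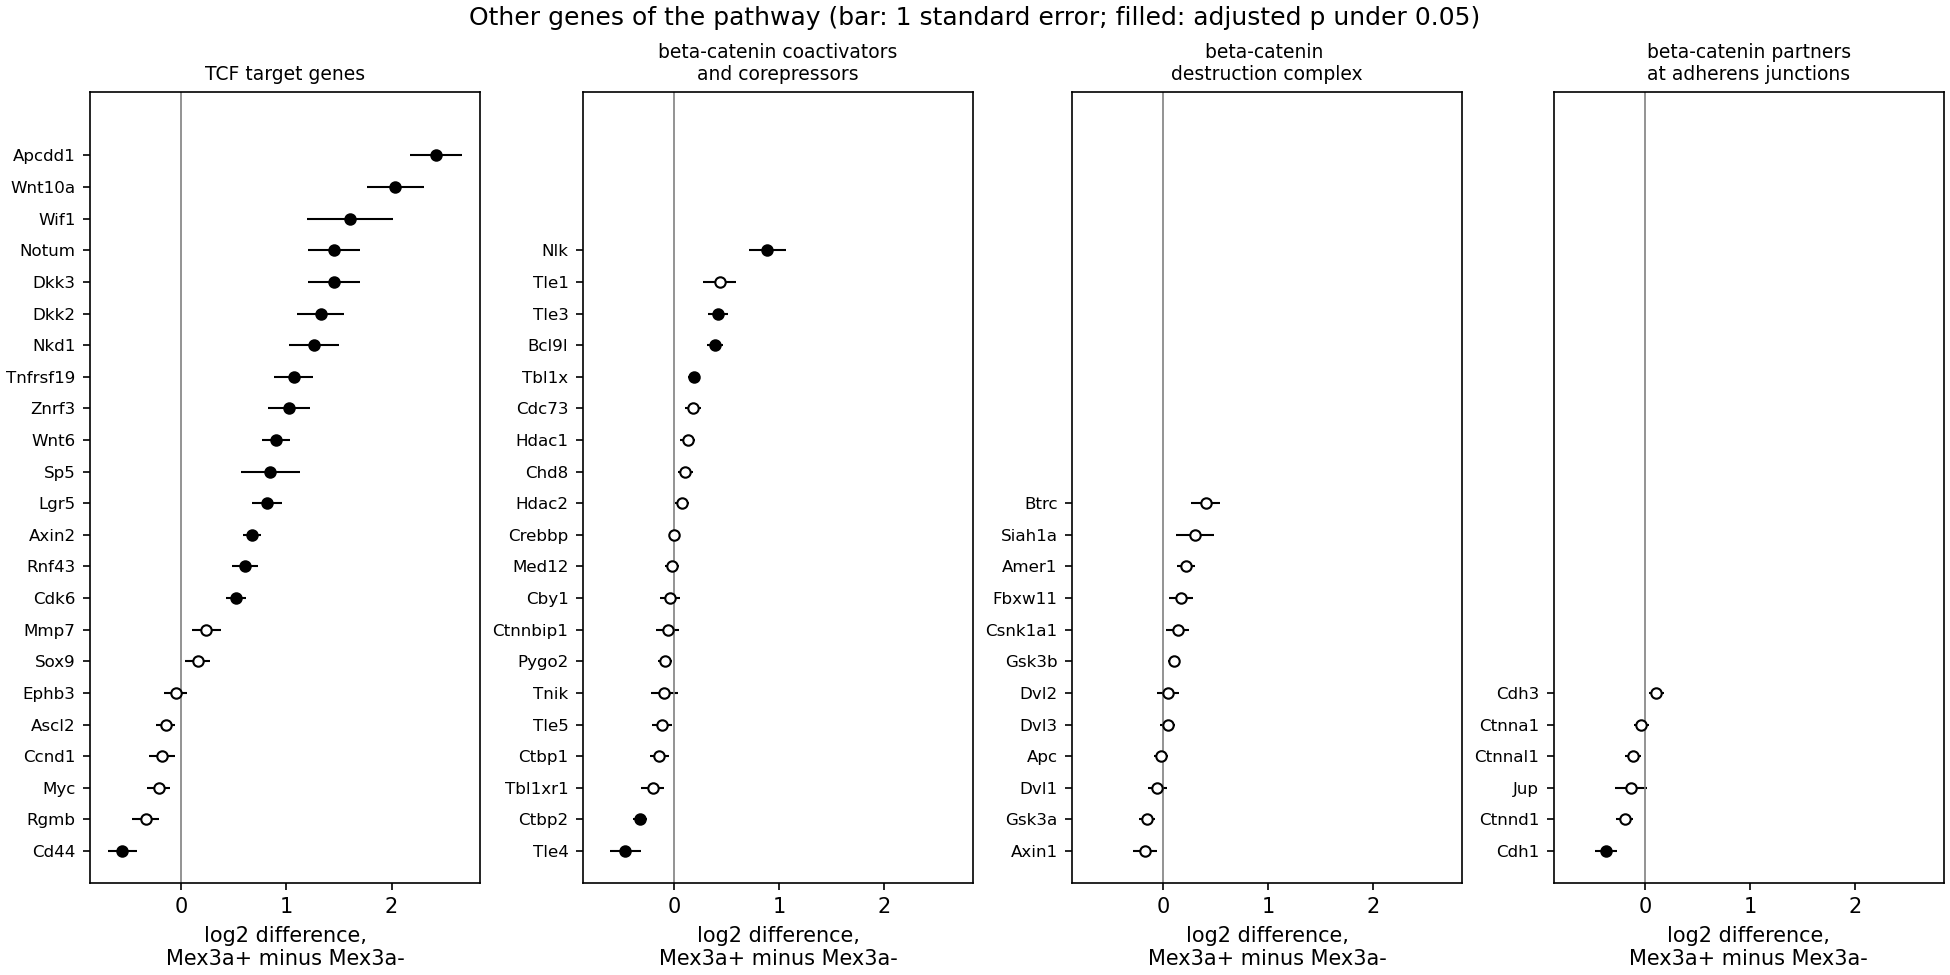
Log2 difference of Mex3a+ minus Mex3a- cells averaged over Lgr5 status (horizontal axis, bars of 1 standard error) for the tested genes of 4 pathway lists (vertical axis, 1 gene a line). Filled points passed a limma adjusted p of 0.05 without the mouse block. Among the 23 target genes 15 are filled above 0 and 1 below, while the destruction complex shows 0 filled points.

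Markers of cell types that also use these factors were read beside the members. They were read as the pathway lists were, so the same shares of all genes and probe sets stand beside their counts. T cells express Lef1 and Tcf7: of 11 T cell markers on the array 6 passed the filter and 0 were called for Mex3a status (limma), and their mean log2 signal ran from 4.26 to 4.35 on Mex3a+ arrays and from 4.18 to 4.36 on Mex3a- arrays. With the mouse as a block 1 was called, Zap70, which was higher (0.36, limma adjusted p = 0.073, and 0.0285 with the block). Of the 11, Cd8a (5.15 to 5.81), Cd4 (5.14 to 5.31), Cd2 and Cd3d were above the filter level on all 12 arrays, Cd3g on 10 and Zap70 on 6, while Cd3e, Cd5, Cd8b1, Cd28 and Ptprc were above it on 0. Lymphatic endothelium expresses Prox1: of 11 endothelial markers 9 passed the filter and 1 was called, Flt1, a receptor for vascular growth factors, which was higher (1.08, limma adjusted p = 0.00165). With the block Cdh5 was called higher too (0.30, limma adjusted p = 0.0932, and 0.0454 with the block). The mean signal of the endothelial markers ran from 4.66 to 4.74 on Mex3a+ arrays and from 4.44 to 4.78 on Mex3a- arrays. Among markers of lymphatic vessels, Lyve1 (4.58 to 4.96) was above the filter level on all 12 arrays, Pdpn (4.33 to 6.26) on 11 and Flt4 on 3. Of the others, Flt1 and Vwf were above it on 12 arrays, Pecam1 on 9, Emcn on 6, Cdh5 and Tie1 on 3, Kdr on 1 and Tek on 0. Prox1 is also found in enteroendocrine cells: of 8 tested markers 1 was called, Scg3, which was higher (0.22, limma adjusted p = 0.0242), and the list's mean signal ran from 4.88 to 5.15 on Mex3a+ arrays and from 4.70 to 5.66 on Mex3a- arrays. The 5.66 was the double negative array of mouse MKL358, and the next highest was 5.32, in double negative cells of MKL347. The median Mex3a difference of the 8 was 0.0036. Pyy (7.42 to 9.75), Chgb (4.89 to 8.27), Chga, Scg3, Pax4 and Neurod1 were above the filter level on all 12 arrays. Insm1 was above it on 5 arrays, Pax6 on 4, Neurog3, Tph1 and Gcg on 1 each, and Scg2 on 0.

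Epithelial markers did move with Mex3a status. Of 10, 9 were lower in Mex3a+ cells and 1, Krt18, was not called (limma; 0.11, adjusted p = 0.245, and called higher with the block at 0.0295), and their mean log2 signal ran from 9.80 to 10.21 on Mex3a+ arrays and from 10.46 to 10.81 on Mex3a- arrays. The median difference of the list was -0.48. The largest falls were those of the intestinal identity factors Cdx1 (-1.31, SE 0.21, limma adjusted p = 0.000582) and Cdx2 (-1.11) and of the brush border gene Vil1 (-1.06). Over all 12 arrays Cdx1 ran from 7.70 to 9.64, Cdx2 from 6.72 to 8.92 and Vil1 from 8.45 to 10.13. Ranges were narrower for Epcam (11.44 to 11.77), Cldn7 (11.34 to 11.80) and Krt8 (11.11 to 11.56). Of 8 tested myeloid and neutrophil markers 3 were lower and 0 higher (limma; median -0.63; 5 lower with the block, S100a8 and S100a9 added), with mean signals of 5.42 to 5.95 on Mex3a+ arrays and 5.51 to 6.71 on Mex3a- arrays. The highest myeloid means, 6.71 and 6.41, were both of mouse MKL358. Lyz2 (11.55 to 11.87), S100a9 (5.95 to 9.59), Fcer1g, Csf1r, Cd14, Tyrobp and Cd68 were above the filter level on all 12 arrays. S100a8 (3.67 to 8.29) was above it on 8 arrays, Cxcr2 on 1, and Itgam and Adgre1 on 0. Of 7 tested fibroblast markers 1 was higher, Fbln1 (0.29, limma adjusted p = 0.043; 2 with the block, Acta2 added), with mean signals of 5.42 to 5.56 on Mex3a+ arrays and 5.34 to 6.39 on Mex3a- arrays. The 6.39 was the Mex3a- Lgr5+ array of mouse MKL367 alone, and the other Mex3a- arrays reached at most 5.54. The part of these markers in the differences of the members was not tested.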

How the data were processed

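Gene expression was measured on Affymetrix mouse arrays in 4 sorted cell populations from 3 mice, 12 arrays in all. Per the labels' protocols, 25 ng of total RNA was amplified as whole transcriptome cDNA, and 8 µg of cDNA was fragmented and labelled. The authors deposited log2 signals, produced with RMA, per the submitters' processing notes, and these entered the fits unchanged. The sources used here do not name the software or its options. The platform table gave 1 symbol to 28898 of 45141 probe sets, several to 551 and none to 15692, and probe sets with 1 symbol above the 40th percentile (4.40 log2) on at least 3 arrays were tested (19883, for 12598 genes). Precision is limited by the number of arrays.

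Probe sets were fitted in R 4.3.3 using limma 3.58.1: 1 mean per population over 12 arrays, empirical Bayes with an intensity trend, 2-sided tests, Benjamini-Hochberg adjustment over all probe sets tested, and a call at an adjusted p under 0.05. Folds are 2 to the power of the log2 difference. The 9 comparisons were the average Mex3a and Lgr5 differences, each within each state of the other marker, their interaction, double positive against double negative cells and the single positive populations. The first alternative added the mouse as a block. SEs and intervals are those of the fit without it unless stated otherwise, so they include the spread between mice. Each mouse gave all 4 populations, so the fit with the block is the paired one, and the fit without it ignores the pairing. For the average Mex3a difference the SE of Lef1 was 0.33 without the block and 0.13 with it. For the brightest Prox1 probe set it was 0.18 and 0.082. Mouse numbers in the titles pair the arrays: once population means had been taken out, same-mouse arrays correlated at 0.345 to 0.689 (18 pairs) and different-mouse arrays at -0.697 to 0.154 (48 pairs). Pathway and marker lists were read by each gene's brightest probe set, with no list test. Genes named were all members, the sort markers, up to 6 called genes of smallest p per pathway list, and the 3 genes most correlated with each member. That ranking left out symbols of clones and gene models. Marker genes and others noted were named after their values were seen. The members and lists were chosen with earlier results of these data known. The fit was tested on simulated data. Promoters came from RefSeq's GRCm38.p6 table. The plots used Python 3.11.15 and matplotlib 3.10.9. Alternatives were other filters and scalings, 1 value per gene, array weights, no trend, and fits without each mouse or array.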

Additional observations from a re-analysis of the deposited data

How the results depend on the processing

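The average Mex3a difference of every tested member kept its sign under all alternatives run. With the mouse as a replicate block, the number of member probe sets called moved to 2 for the average Lgr5 difference, 9 for Mex3a in Lgr5+ cells, 1 for Lgr5 in Mex3a- cells and 11 for Mex3a+ Lgr5- against Mex3a- Lgr5+ cells; for the other 5 comparisons it stayed within 1.5 times the count without the block. For that last comparison 1 member was called without the block, 0 without the filter or without the trend, 2 with the filter at the 60th percentile, 3 after a further quantile normalization and 7 with array weights. Array weights gave 10 calls for Mex3a in Lgr5+ cells. With 1 probe set per gene, so that 6 genes stood in place of 14 probe sets, the calls were 6 for the average Mex3a difference, 2 for Mex3a in Lgr5+ cells, 4 in Lgr5- cells and 4 for double positive against double negative cells; with the mean of a gene's probe sets they were 5, 3, 5 and 4. Leaving out 1 mouse or 1 array, with or without the block, gave 2 to 13 calls for the average Mex3a difference, 0 to 9 for Mex3a in Lgr5+ cells, 0 to 12 in Lgr5- cells, 0 to 12 for double positive against double negative cells and 0 to 9 for Mex3a+ Lgr5- against Mex3a- Lgr5+ cells (0 to 4 without the block; 8, 6 and 9 with the block and without MKL358, MKL347 and MKL367). The same fits gave 0 to 2 for the average Lgr5 difference, 0 to 3 for Lgr5 in Mex3a- cells, and 0 for Lgr5 in Mex3a+ cells and for the interaction. Without mouse MKL347 and with no block the counts were 2 for the average Mex3a difference and 0 for Mex3a in Lgr5+ cells, for Mex3a in Lgr5- cells, for double positive against double negative cells and for Mex3a+ Lgr5- against Mex3a- Lgr5+ cells; the cause was not tested. Leaving out a single array also gave 0 for Mex3a in Lgr5+ cells (3 of 12 arrays) and for Mex3a+ Lgr5- against Mex3a- Lgr5+ cells (9 of 12 arrays). The fits that left out a mouse together with the block were chosen after seeing the data. Apart from the block on all arrays, the shares of all probe sets called under these alternatives are not given here. The counts therefore do not say whether the members changed more than other probe sets did. A further quantile normalization and median centring moved the median Mex3a difference of all probe sets by 0.011 and -0.033. Members near the filter level of 4.40, such as the dimmer Bcl9 and Tcf7l1 probe sets, have little room below them.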
